A study of Mus musculus with 20 samples.

Results

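ATDC5 cells are mouse prechondrogenic cells; given insulin they turn into cartilage-like cells, and they serve as a culture model of chondrogenesis. Kmt2d-/- and Kmt2d+/+ clones of this line were compared after 7 days of chondrogenic differentiation (day 7), in 5 of the 10 RNA-seq libraries of the series. These are the libraries labelled day 7, 1 from each of 3 Kmt2d+/+ clones and 2 Kmt2d-/- clones, and each summed 2 flow-cell runs, so that 10 of the 20 runs entered. The other 5 libraries came from the same clones before differentiation (day 0). The Kmt2d-/- clones had lost the catalytic SET domain of Kmt2d through deletions on both alleles, while the Kmt2d+/+ clones kept the domain. All clones were kept in DMEM/Ham's F12 with fetal bovine serum, and the day 7 cultures also received insulin, transferrin, selenium, ascorbic acid and beta-glycerophosphate. Every replicate is a separate clonal line, so features that the 2 Kmt2d-/- clones share for reasons other than the deletion cannot be told apart from its effect. The sample titles give Kmt2d+/+ clone 2 and Kmt2d-/- clone 1 the same clone name under different genotypes, and how these lines relate is not stated in the labels.

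KMT2D is a methyltransferase of lysine 4 on histone H3 that acts largely at enhancers, and its loss of function causes Kabuki syndrome, in which growth of the skeleton is impaired. In cartilage, the transcription factor SOX9, with SOX5 and SOX6, turns on genes for type II collagen, aggrecan and other matrix proteins, and the matrix proteoglycans must be sulfated to hold water. Chondrocytes proliferate, leave the cell cycle and become hypertrophic under the control of Wnt, FGF, BMP, hedgehog and insulin-like growth factor (IGF) signals. The comparison asked how the genes of differentiating chondrogenic cells differ when KMT2D lacks its catalytic domain.

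The day 7 libraries held 54498430 to 66237188 counts, and the 2 runs of a library correlated across genes with r = 0.9964 or more over all 10 libraries. Mitochondrial genes took 1.98% to 2.93% of the counts at day 7, with the genotypes overlapping. The 10 most abundant genes took 6.19% to 7.60% in the Kmt2d+/+ clones and 11.1% in both Kmt2d-/- clones. Levels are given as CPM, the counts scaled to the library size after TMM normalization, in the order Kmt2d+/+ clones 1, 2 and 3 and then Kmt2d-/- clones 1 and 2. CPM is not corrected for gene length, so levels are not compared between genes. Kmt2d itself stood at 186.7, 173.3 and 207.0 CPM against 174.8 and 113.3 CPM (log2 difference -0.39, SE 0.22, edgeR adjusted p = 0.363). The genotypes overlapped. The table counts reads over the full gene rather than the deleted stretch, so this value checks neither the labels nor the deletion. In bulk RNA, fewer cells that express a gene and less of its RNA per cell cannot be told apart.

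Clones of the same genotype differed in many genes. Among genes at 5 CPM or more in at least 1 clone of a pair, Kmt2d+/+ clones 1 and 2 differed by over 2-fold in 1306 genes, clones 2 and 3 in 907 and clones 1 and 3 in 606. Kmt2d-/- clones 1 and 2 differed in 739. The 6 pairs made of 1 clone of each genotype differed in 1200 to 1764 genes, so the pair of Kmt2d+/+ clones 1 and 2 lay above the lowest of these 6 pairs. On the first principal component of the day 7 libraries, which held 49.3% of the variance, the Kmt2d-/- clones scored 82.4 and 64.1 and the Kmt2d+/+ clones -28.3, -64.4 and -53.9. The second component held 25.5% and set Kmt2d+/+ clone 1 (68.8) against Kmt2d+/+ clone 2 (-66.9), with the Kmt2d-/- clones between them.

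**Figure D1:**
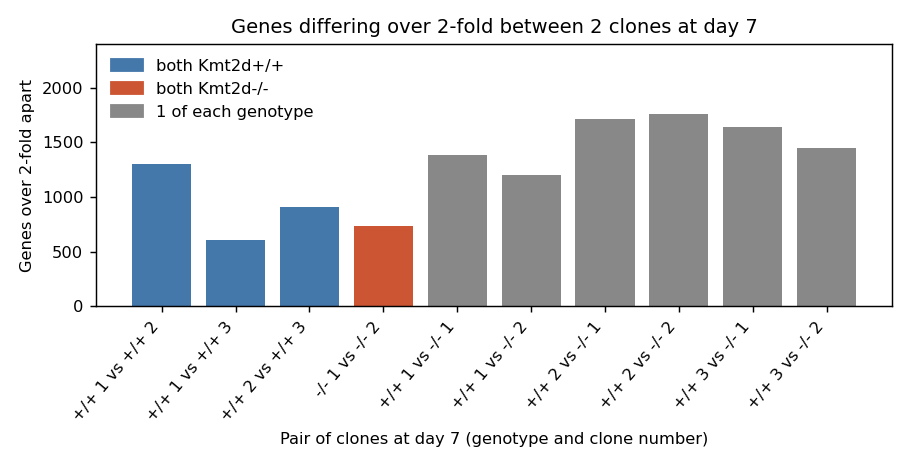
Number of genes that differed by over 2-fold between 2 clones at day 7, for each of the 10 pairs of clones (x axis, genotype and clone number), among genes at 5 CPM or more in at least 1 clone of the pair. Pairs within a genotype ranged from 606 to 1306 genes and pairs of 1 clone of each genotype from 1200 to 1764.

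With 1 edgeR quasi-likelihood model over all 10 libraries, 290 of 15467 tested genes (1.87%) passed at day 7, which here means a Benjamini-Hochberg adjusted p under 0.05. Of these, 140 (0.905% of the tested genes) were higher and 150 (0.97%) were lower in the Kmt2d-/- clones. The median log2 difference, Kmt2d-/- minus Kmt2d+/+, was -0.02 over all tested genes. Among passing genes its median size was 2.12, 102 genes differed by over 8-fold and 61 by under 2-fold. In all 290 genes every clone of 1 genotype lay above every clone of the other, an order found in 37.7% of all tested genes. A fit to the 5 day 7 libraries alone gave 55 genes (0.366% of 15033), 44 of them among the 290. DESeq2 gave 1566 genes (7.08% of 22119) and limma-voom 533 (3.45%), of which 288 and 273 were among the 290. With the clone as a random block, since day 0 and day 7 libraries come from the same lines, limma-voom gave 442 genes (2.86%, 252 higher and 190 lower), of which 250 were among the 290. Of the 140 higher genes, 68 lay in 3 chromosome segments (chromosome 12 from 40 Mb on, the first 20 Mb of chromosome 7 and the first 60 Mb of chromosome 13), whose median level was raised in both Kmt2d-/- clones at both days. These segments hold 839 of the tested genes. Their bounds were set with earlier results of these data known, so the raised medians and the 68 genes are a description and no test. With each library's regional level subtracted 151 genes (0.976%) passed, 53 higher and 98 lower.

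Which genes passed depended on the clones. Leaving out Kmt2d+/+ clone 1 left 32 genes, leaving out its clone 2 left 272 and leaving out its clone 3 left 10. Leaving out Kmt2d-/- clone 1 left 27 and leaving out its clone 2 left 70. The naming rule drew 55 passing genes, and 0 of them changed sign under any of 16 alternatives. Since the genotypes did not overlap in these genes, leaving out a clone could hardly reverse a sign, so this is no check. When the clones were dropped in that order, 15, 40, 7, 9 and 21 of the 55 were called again. All 4 genes that passed without each clone in turn and in every other alternative were lower in the Kmt2d-/- clones. They were Cox7b2, a respiratory chain gene of cytochrome c oxidase, Akr1c13, an aldo-keto reductase gene, and the zinc-finger genes Zfp980 and Rex2. Cox7b2 held 878, 795 and 851 counts against 1 and 0 counts. Akr1c13 stood at 23.2, 22.2 and 19.8 CPM against 1.04 and 0.807 CPM (log2 difference -4.56, SE 0.32, edgeR adjusted p = 7.96e-04). It lies in the chromosome 13 segment, where 4 genes were lower and 13 higher. Rex2 stood at 10.7, 15.9 and 12.1 against 0.500 and 0.623 CPM (-4.52, SE 0.39, edgeR adjusted p = 0.00426). Zfp980 and Rex2 belong to a group of near-identical neighbours on distal chromosome 4, so the split of reads between such copies is uncertain. In total 42 genes (0.272% of those tested) passed in edgeR over all libraries, edgeR over the day 7 libraries alone, DESeq2 and limma-voom, 17 of them higher and 25 lower.

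The start regions of 2 genes that rose and of 1 that fell are printed because these genes passed in most alternatives and the RefSeq promoter table holds them. Ndn meets both points but is not printed, since its RefSeq start lies 1708 bases from the start in the GENCODE annotation. Each is 300 bases long, from 250 before to 50 after the RefSeq start, on the GRCm38.p6 build, written 5′ to 3′ on the gene's strand with CG dinucleotides in capitals. No assay in the series measured these regions, and the letters are shown as reference only.
Papss2 (chr19:32595465-32595764, + strand): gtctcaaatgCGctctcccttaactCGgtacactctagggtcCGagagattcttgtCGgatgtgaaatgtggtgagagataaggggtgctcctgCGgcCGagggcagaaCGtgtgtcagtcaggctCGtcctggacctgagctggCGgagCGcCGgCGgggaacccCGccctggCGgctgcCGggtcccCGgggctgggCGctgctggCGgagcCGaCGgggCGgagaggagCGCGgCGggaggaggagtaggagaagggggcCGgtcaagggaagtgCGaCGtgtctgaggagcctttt
Fzd9 (chr5:135250998-135251297, - strand): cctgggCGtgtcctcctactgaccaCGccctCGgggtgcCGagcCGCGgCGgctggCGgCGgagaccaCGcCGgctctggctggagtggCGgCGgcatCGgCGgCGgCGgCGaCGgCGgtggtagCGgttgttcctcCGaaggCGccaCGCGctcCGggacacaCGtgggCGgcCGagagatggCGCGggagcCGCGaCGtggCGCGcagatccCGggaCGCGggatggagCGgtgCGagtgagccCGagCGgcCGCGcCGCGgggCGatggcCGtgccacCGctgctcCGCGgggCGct
Pla2g5 (chr4:138863420-138863719, - strand): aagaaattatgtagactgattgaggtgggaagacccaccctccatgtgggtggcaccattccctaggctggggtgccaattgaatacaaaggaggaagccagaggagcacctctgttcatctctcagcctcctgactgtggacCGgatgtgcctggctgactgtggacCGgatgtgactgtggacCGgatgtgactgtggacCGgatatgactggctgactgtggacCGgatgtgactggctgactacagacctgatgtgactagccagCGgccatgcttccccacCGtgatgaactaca
The window of Papss2 holds 27 CG dinucleotides and that of Fzd9 53, numbers reached by 15.5% and 0.45% of the 32817 windows of this length in the table. Pla2g5, a secreted phospholipase gene, has 7, which is also the median over all windows.

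Of the 7 cartilage collagen genes Col2a1, the type II collagen gene, rose and the other 6 did not pass, and the median log2 difference of the list was 3.25. Of 22 tested genes for cartilage proteoglycans and other matrix proteins, 4 rose, 0 fell and 18 did not pass, with a median of 3.18. Counts in these and the later lists stand beside 0.905% of all tested genes that rose and 0.97% that fell. Every Kmt2d-/- clone lay above every Kmt2d+/+ clone in 6 of the 7 and in 17 of the 22 genes, against 17.9% of all genes. The levels of these lists, summed over their members, were 461.1 to 927 CPM for the collagens in the Kmt2d+/+ clones and 25060 to 29420 CPM in the Kmt2d-/- clones, and 359.3 to 512.3 against 2376 to 2467 CPM for the other matrix genes.

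Col2a1 stood at 332.2, 125.6 and 252.5 CPM against 20470 and 24450 CPM. Of the other fibril-forming collagens of cartilage, Col11a1 stood at 201.4, 297.2 and 208.7 against 3395 and 3608 CPM (log2 difference 3.89, SE 1.08, edgeR adjusted p = 0.0969). Col27a1, a fibrillar collagen of growth cartilage, stood at 75.8, 10.0 and 28.0 against 366.6 and 355.3 CPM (3.25, SE 0.79, edgeR adjusted p = 0.0684). Both were higher in each Kmt2d-/- clone than in any Kmt2d+/+ clone, but neither passed. Acan, the gene of aggrecan, the main proteoglycan of cartilage, stood at 39.6, 24.4 and 13.6 against 933.1 and 450.4 CPM and did not pass. Hapln1, which encodes the link protein that ties aggrecan to hyaluronan, stood at 124.1, 7.86 and 18.4 against 867.9 and 1265 CPM (4.41, SE 1.26, edgeR adjusted p = 0.103). Kmt2d+/+ clone 1 held the highest Kmt2d+/+ level of Col2a1, Acan, Hapln1 and Col27a1. Cnmd, the chondromodulin gene, stood at 0.0658, 0.310 and 0 CPM against 15.4 and 14.2 CPM (6.86, SE 1.52, edgeR adjusted p = 0.0581).

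Among the matrix genes that passed were 3 of the 4 matrilins, adaptor proteins that link collagen fibrils to proteoglycans. Matn1 stood at 9.54, 3.66 and 9.46 CPM against 45.2 and 67.8 CPM (log2 difference 2.90, SE 0.53, edgeR adjusted p = 0.0369). Matn3 stood at 1.09, 0.546 and 1.12 against 13.4 and 5.79 CPM (3.39, SE 0.60, edgeR adjusted p = 0.0346), and Matn4 at 0.888, 0.236 and 0.327 against 43.6 and 17.4 CPM (5.98, SE 0.71, edgeR adjusted p = 0.0101). The groups did not overlap, Kmt2d-/- clone 1 was the higher of its group for Matn3 and Matn4, and clone 2 was the higher for Matn1. Matn2, at 171.9, 89.0 and 147.8 against 254.2 and 191.7 CPM, did not pass (0.71, SE 0.28, edgeR adjusted p = 0.206). The fourth passing matrix gene, Mia, which encodes a small protein secreted by chondrocytes, had low levels of 0.165, 0.0590 and 0.0682 against 2.06 and 0.972 CPM (3.94, SE 0.75, edgeR adjusted p = 0.0411). Without Kmt2d-/- clone 1 the log2 difference was 2.66 for Matn3, 5.16 for Matn4 and 3.30 for Mia, and without Kmt2d+/+ clone 1 it was 6.75 for Matn4. Of Col2a1 and these 4 genes, Matn4 alone still passed without Kmt2d+/+ clone 1, and none passed without Kmt2d+/+ clone 3 (edgeR adjusted p = 0.135 for Matn4 and 0.179 for Col2a1) or without Kmt2d-/- clone 1 (0.0634 for Matn4 and 0.0926 for Col2a1).

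Sulfate supply for the proteoglycans was the other cartilage function with passing genes. Of 31 genes of glycosaminoglycan synthesis and sulfation, 2 rose, 0 fell and 29 did not pass, beside 0.905% of all tested genes that rose. Their median log2 difference was 0.38. Papss2, which makes the activated sulfate donor, stood at 2.06, 1.49 and 1.24 CPM against 83.5 and 108.2 CPM, and it passed in 14 of 16 alternatives. Slc26a2, the sulfate transporter of chondrocytes, stood at 38.0, 34.6 and 24.7 against 88.2 and 77.9 CPM (1.36, SE 0.25, edgeR adjusted p = 0.0372). Both genes were higher in each Kmt2d-/- clone than in any Kmt2d+/+ clone. The enzyme genes next in rank did not pass. Ugdh, which makes UDP-glucuronic acid, stood at 152.1, 175.6 and 121.7 against 458.3 and 269.4 CPM (1.28, SE 0.30, edgeR adjusted p = 0.0618). Csgalnact1, which starts chondroitin sulfate chains, stood at 41.4, 18.9 and 24.5 against 98.3 and 65.4 CPM (1.53, SE 0.36, edgeR adjusted p = 0.063). Slc26a2 passed without Kmt2d+/+ clone 2 (edgeR adjusted p = 0.0477) but not without any other clone (0.078 to 0.179), and Papss2 failed without Kmt2d+/+ clone 1 (0.0524) or clone 3 (0.126).

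Genes for processing of the matrix and for later chondrocyte stages did not pass. Of 30 genes of collagen folding, processing and crosslinking 0 passed, with a median log2 difference of 0.41 and 23 positive values. Of 20 hypertrophic and mineralizing chondrocyte genes 0 passed, with a median of 0.31 and a summed level of 3321 to 4933 CPM in the Kmt2d+/+ clones and 4376 to 4879 CPM in the Kmt2d-/- clones. Col10a1, the type X collagen gene that marks hypertrophic chondrocytes, stood at 28.0, 40.7 and 40 against 30.1 and 162.0 CPM. Kmt2d-/- clone 2 stood above and clone 1 within the Kmt2d+/+ range (1.41, SE 0.82, edgeR adjusted p = 0.382). Phospho1, a phosphatase of matrix mineralization, stood at 889.2, 157.4 and 283.8 against 663.2 and 607.3 CPM, with both Kmt2d-/- clones inside the Kmt2d+/+ range.

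**Figure D2:**
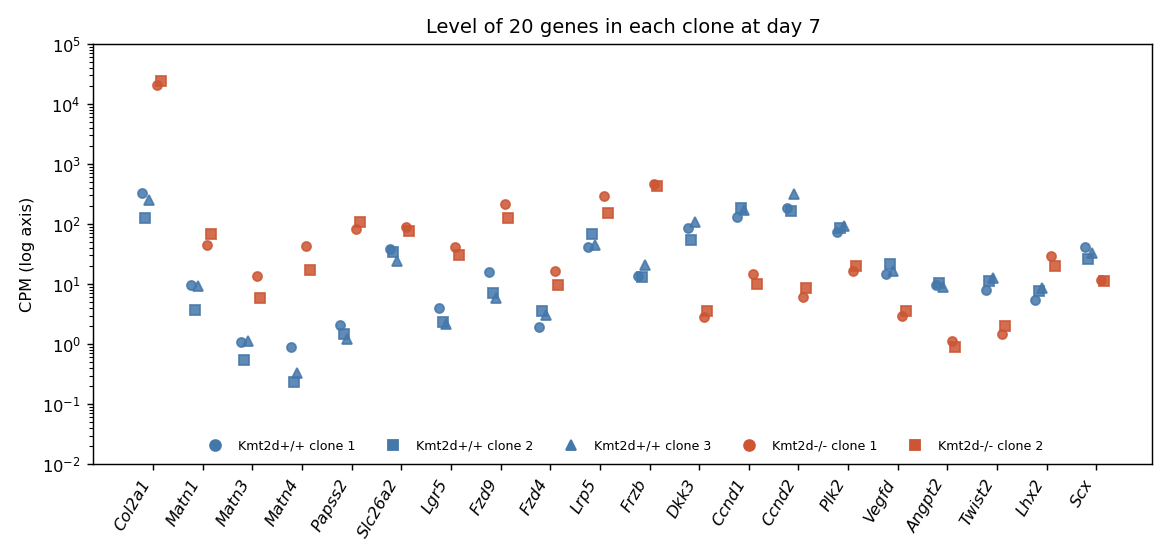
Level of 20 passing genes (x axis) in each clone at day 7, in CPM on a log axis, with blue for Kmt2d+/+ and red for Kmt2d-/- clones and 1 symbol per clone. In every gene shown the red points lie on 1 side of the blue points, as in Col2a1 (20470 and 24450 against 125.6 to 332.2 CPM) and Ccnd1 (14.6 and 10.0 against 130.2 to 182.5 CPM).

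Of 22 tested chondrogenic transcription factors and cofactors, 3 rose, 0 fell and 19 did not pass, beside 0.905% of all tested genes that rose. In 12 of the 22 each Kmt2d-/- clone lay above each Kmt2d+/+ clone, against 17.9% of all tested genes, and the median log2 difference was 0.45. Wwp2, a ubiquitin ligase gene that is a target of SOX9, stood at 108.3, 71.4 and 51.7 CPM against 410.4 and 307.7 CPM (2.22, SE 0.34, edgeR adjusted p = 0.0235). Foxa2, a forkhead factor of maturing chondrocytes, stood at 1.28, 0.516 and 0.300 against 33.3 and 32.2 CPM (5.55, SE 0.82, edgeR adjusted p = 0.034), and at 6.32 on the log2 scale without Kmt2d+/+ clone 1. Its relative Foxa3 had 0, 0.0295 and 0 against 0.327 and 1.5 CPM (6.22, SE 1.26, edgeR adjusted p = 0.0473) and lies in the chromosome 7 segment. With the regional level subtracted its log2 difference was 5.62 and it did not pass (edgeR adjusted p = 0.0718). Foxa3 did not pass without any one clone either (edgeR adjusted p = 0.0731 to 0.236), and its log2 difference was then 4.75 (without Kmt2d-/- clone 2) to 8.55 (without Kmt2d+/+ clone 2, whose counts were the only Kmt2d+/+ ones). When 1 clone was left out, Wwp2 passed without Kmt2d+/+ clone 2 alone (0.0467) and Foxa2 in no case (0.0586 to 0.167).

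The SOX genes did not pass. Sox9 stood at 228.3, 115.6 and 96.1 CPM against 409.1 and 480.9 CPM. Sox5 stood at 22, 10.9 and 19 against 46.0 and 61.4 CPM (log2 difference 1.63, SE 0.62, edgeR adjusted p = 0.194). Sox6 stood at 15.6, 8.37 and 7.23 against 38.1 and 27.7 CPM (1.66, SE 0.48, edgeR adjusted p = 0.108). In all 3 both Kmt2d-/- clones lay above the Kmt2d+/+ clones. Ppargc1a, a transcriptional coactivator of mitochondrial genes, stood at 7.60, 8.46 and 2.14 against 45.4 and 52.3 CPM (3.01, SE 0.91, edgeR adjusted p = 0.119).

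Of 42 tested limb and skeletal patterning factors 1 rose and 1 fell, with a median log2 difference of 0.13. Twist2, a basic helix-loop-helix repressor of mesenchyme, fell, from 7.98, 11.2 and 12.6 CPM to 1.46 and 2.04 CPM (-2.60, SE 0.33, edgeR adjusted p = 0.0127). Lhx2, a LIM homeobox gene of the limb bud, rose, from 5.53, 7.76 and 8.45 to 29.2 and 20.4 CPM (1.77, SE 0.26, edgeR adjusted p = 0.0206). The clones of each genotype were close for both genes. Several homeobox genes of the limb had lower levels in both Kmt2d-/- clones without passing. Msx1 stood at 10.3, 8.02 and 7.32 against 3.50 and 2.97 CPM (-1.40, SE 0.36, edgeR adjusted p = 0.0812), and Msx2 at 11.3, 8.89 and 7.59 against 3.85 and 4.82 CPM (-1.09, SE 0.28, edgeR adjusted p = 0.0779). In the same list the homeobox gene Shox2 was at 43.6, 32.4 and 41.0 against 1.08 and 9.41 CPM, so that, as a ratio, its Kmt2d-/- clones differed more from each other than the Kmt2d+/+ clones did. Among 29 Hox genes, Hoxd13 alone passed, as higher, and the median of the list was 0.08. Hoxd13 stood at 0.0164, 0.177 and 0.0136 against 3.52 and 10.5 CPM (6.62, SE 1.18, edgeR adjusted p = 0.0355), with a log2 difference of 8.66 without Kmt2d+/+ clone 2 and 5.62 without Kmt2d-/- clone 2. Twist2 and Lhx2 did not pass without Kmt2d+/+ clone 3 (edgeR adjusted p = 0.119 and 0.146) or without either Kmt2d-/- clone (0.0548 to 0.132), and Lhx2 did not pass without Kmt2d+/+ clone 1 (0.0613). Hoxd13 passed without Kmt2d+/+ clone 2 (0.0367) but not without any other clone (0.0905 to 0.182).

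Among the lists of signalling genes, the Wnt list held the most passing members. Wnt ligands bind Frizzled receptors together with LRP5 or LRP6, and LGR receptors bind R-spondins, which raise the number of Frizzled receptors at the surface. Of 39 tested Wnt ligands, receptors and targets, 4 rose, 0 fell and 35 did not pass, with a median log2 difference of 0.22. All 4 that rose encode receptors. Of all tested genes 0.905% rose, and the lists were written with earlier results of these data known, so the count is no test of the pathway. Fzd9, whose start region is printed above, stood at 15.7, 7.12 and 5.86 CPM against 213.9 and 127.7 CPM (4.16, SE 0.60, edgeR adjusted p = 0.0206). Lgr5 stood at 4.06, 2.37 and 2.14 against 42.0 and 31.0 CPM (3.67, SE 0.50, edgeR adjusted p = 0.0182). Fzd4 stood at 1.94, 3.54 and 3.07 against 16.4 and 9.70 CPM (2.19, SE 0.41, edgeR adjusted p = 0.0402), and Lrp5 at 41.2, 68.3 and 44.4 against 290.0 and 153.7 CPM (2.11, SE 0.35, edgeR adjusted p = 0.0314). Kmt2d-/- clone 1 was the higher of its group for all 4, and no Kmt2d+/+ clone reached either Kmt2d-/- clone.

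Neighbouring members of the receptor families did not pass. Lrp6, the other LRP coreceptor, stood at 335.5, 264.9 and 352.1 CPM against 434.0 and 304.4 CPM, with overlapping groups (0.22, SE 0.23, edgeR adjusted p = 0.673). The related receptor gene Lgr4 also overlapped, at 51.4, 20.5 and 32.7 against 40 and 58.0 CPM (0.49, SE 0.50, edgeR adjusted p = 0.652). Of the transcription factors at the end of the pathway, Lef1 stood at 2.32, 1.71 and 2.99 against 10.0 and 7.35 CPM (1.89, SE 0.56, edgeR adjusted p = 0.112). Tcf7 stood at 26.5, 23.4 and 22.9 against 14.3 and 10.1 CPM (-1, SE 0.23, edgeR adjusted p = 0.0606). Axin2, a common target of beta-catenin, overlapped, at 11.8, 3.35 and 9.83 against 5.46 and 11.1 CPM (-0.01, SE 0.53, edgeR adjusted p = 0.995). Rspo2, an R-spondin gene, stood at 3.49, 17.1 and 4.10 against 0.288 and 0.440 CPM (-4.49, SE 1.09, edgeR adjusted p = 0.0689). Of the receptors that rose, Lgr5, Fzd9, Fzd4 and Lrp5, none passed without Kmt2d+/+ clone 1 (edgeR adjusted p = 0.0524 to 0.1), without Kmt2d+/+ clone 3 (0.137 to 0.202) or without Kmt2d-/- clone 1 (0.0634 to 0.185).

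Secreted Wnt antagonists split in direction, with 1 of 10 tested genes higher, 1 lower and 8 not passing (median 0.60). Frzb, which encodes a decoy receptor abundant in cartilage, rose, at 13.6, 13.1 and 20.6 CPM against 468.0 and 438.3 CPM (log2 difference 4.84, SE 0.98, edgeR adjusted p = 0.0471). Dkk3, a Dickkopf family gene, fell, at 85.6, 54.0 and 106.9 against 2.85 and 3.61 CPM (-4.67, SE 0.64, edgeR adjusted p = 0.0182). The 2 Kmt2d-/- clones were close for both genes. Dkk1, an inhibitor that binds LRP coreceptors, stood at 1.05, 0.634 and 1.42 against 3.77 and 2.62 CPM and did not pass (1.62, SE 0.46, edgeR adjusted p = 0.0999). Each of Frzb and Dkk3 passed only without Kmt2d+/+ clone 2 when clones were left out in turn, with edgeR adjusted p of 0.0748 to 0.202 and 0.0613 to 0.132 without the others.

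Of the 3 D-type cyclins, which drive cells through the G1 phase with CDK4 and CDK6, Ccnd1 and Ccnd2 fell. Ccnd1 stood at 130.2, 182.5 and 168.4 CPM against 14.6 and 10.0 CPM (log2 difference -3.70, SE 0.35, edgeR adjusted p = 0.0067). Ccnd2 stood at 187.7, 162.5 and 311.7 against 6.08 and 8.65 CPM (-4.90, SE 0.52, edgeR adjusted p = 0.00747). The lowest Kmt2d+/+ clone lay well above both Kmt2d-/- clones for each gene. Ccnd3, the third D-type cyclin, overlapped between genotypes, at 122.7, 158.2 and 126.5 against 130.7 and 81.6 CPM, and did not pass (-0.36, SE 0.28, edgeR adjusted p = 0.529). Of the 15 CDK inhibitors, D-type cyclins and their partners these 2 cyclins fell, 0 rose and 13 did not pass, with a median of 0.12.

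Neither the inhibitors nor the genes of the later cell cycle passed. Cdkn1c, which encodes the inhibitor p57, stood at 115.0, 13.6 and 20.5 against 256.2 and 89.3 CPM, with Kmt2d+/+ clone 1 above Kmt2d-/- clone 2 (1.80, SE 0.98, edgeR adjusted p = 0.35). Cdkn1a, which encodes p21, overlapped as well, at 169.1, 67.9 and 72.1 against 131.8 and 217.1 CPM (0.76, SE 0.73, edgeR adjusted p = 0.628). Of 35 S phase genes 0 passed, with a median of 0.00 (summed level 2560 to 3315 against 2561 to 3351 CPM). Of 40 genes of the G2 and M phases 0 passed, with a median of 0.19 (3065 to 3651 against 3961 to 4012 CPM), and 14 of them had every Kmt2d-/- clone above every Kmt2d+/+ clone, against 17.9% of all tested genes. Plk2, a kinase gene among 23 tested p53 targets, was the only one to pass, as lower (75.2, 86.5 and 94.1 against 16.9 and 19.9 CPM, log2 difference -2.21, SE 0.40, edgeR adjusted p = 0.0355). Ccnd2 failed in 1 of 16 alternatives, without Kmt2d-/- clone 1 (edgeR adjusted p = 0.0634). Ccnd1 failed in 2, without Kmt2d-/- clone 1 (0.0526) and without clone 2 (0.0512), within a range of 6.24e-25 to 0.0526 over its alternatives. Plk2 did not pass without Kmt2d+/+ clone 3, Kmt2d-/- clone 1 or Kmt2d-/- clone 2 (0.182, 0.182 and 0.134).

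Of the other growth factor pathways, FGF signalling had 1 higher gene, 0 lower and 26 not passing among 27 tested. Fgfr3, a receptor that restrains growth of cartilage, stood at 32.7, 9.10 and 19.7 CPM against 124.5 and 275.2 CPM, and its log2 difference of 3.29 was 2.60 without Kmt2d-/- clone 2. Fgfr3 passed without Kmt2d+/+ clone 2 (edgeR adjusted p = 0.0356) but not without Kmt2d+/+ clone 1 (0.0523) or clone 3 (0.179). Nor did it pass without either Kmt2d-/- clone, which leaves 1 clone in that group (log2 difference 3.74 without clone 1). The remaining FGF genes leaned the other way, with a list median of -1.16 and 20 negative values, and in 13 both Kmt2d-/- clones lay below all Kmt2d+/+ clones, an order found in 19.8% of all tested genes. Among these were feedback inhibitors and target genes of the pathway, none of which passed. Spred3 stood at 5.67, 6.09 and 6.19 against 1.83 and 1.89 CPM (-1.69, SE 0.37, edgeR adjusted p = 0.0553), and Etv4 at 2.42, 6.04 and 15 against 0.846 and 0.733 CPM (-3.30, SE 0.91, edgeR adjusted p = 0.0964). Dusp6, a phosphatase that acts on ERK, stood at 6.73, 23.6 and 36.6 against 6.19 and 3.50 CPM (-2.20, SE 0.70, edgeR adjusted p = 0.132), with Kmt2d+/+ clone 1 close to Kmt2d-/- clone 1.

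In the IGF axis 1 of 20 tested genes rose, 0 fell and the median was -0.03. Igfbp2, an IGF-binding protein gene, rose, at 8.36, 12.1 and 22.3 CPM against 113.3 and 415.1 CPM (log2 difference 4.21, SE 0.86, edgeR adjusted p = 0.0482). It did not pass without any one clone (0.0647 to 0.226), and its log2 difference was 4.86 without Kmt2d-/- clone 1 and 2.99 without clone 2. The summed level of the list was 7339 to 9329 CPM in the Kmt2d+/+ clones and 23690 to 26580 CPM in the Kmt2d-/- clones. The most abundant member was Igfbp5, another binding protein gene, at 5497, 7527 and 5276 against 18090 and 23410 CPM, which did not pass (1.77, SE 1.14, edgeR adjusted p = 0.439). Igf2, the imprinted growth factor gene, stood at 1.10, 33.1 and 1.45 against 2968 and 820.0 CPM, a difference that fell short of the threshold (7.31, SE 2.07, edgeR adjusted p = 0.1). Kmt2d+/+ clone 2 held the highest Igf2 level of its genotype, and the genotypes did not overlap.

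BMP signalling had 1 higher gene among 33 tested, Id4, and 0 lower, with a median of 0.17. Id4, which encodes an inhibitor of helix-loop-helix factors, lies in the chromosome 13 segment and stood at 0.592, 0.722 and 0.409 CPM against 1.92 and 3.10 CPM (log2 difference 2.12, SE 0.42, edgeR adjusted p = 0.0443). It did not pass with the regional level subtracted (0.0725) or without any one clone (0.0591 to 0.243). Bmp6, a BMP ligand gene of chondrocytes, stood at 4.03, 1.27 and 0.627 against 27.2 and 38.0 CPM without passing (4.05, SE 0.98, edgeR adjusted p = 0.0694). Among lists with 0 passing genes, TGF-beta and activin signalling (28 tested) had a median of -0.36, hedgehog and PTHrP signalling (16) 0.06, Notch signalling (17) -0.10 and retinoid metabolism and signalling (15) -0.35. The median was -0.49 for natriuretic peptide and cGMP signalling (11 tested) and 0.28 for regulators of G-protein signalling (13).

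**Figure D3:**
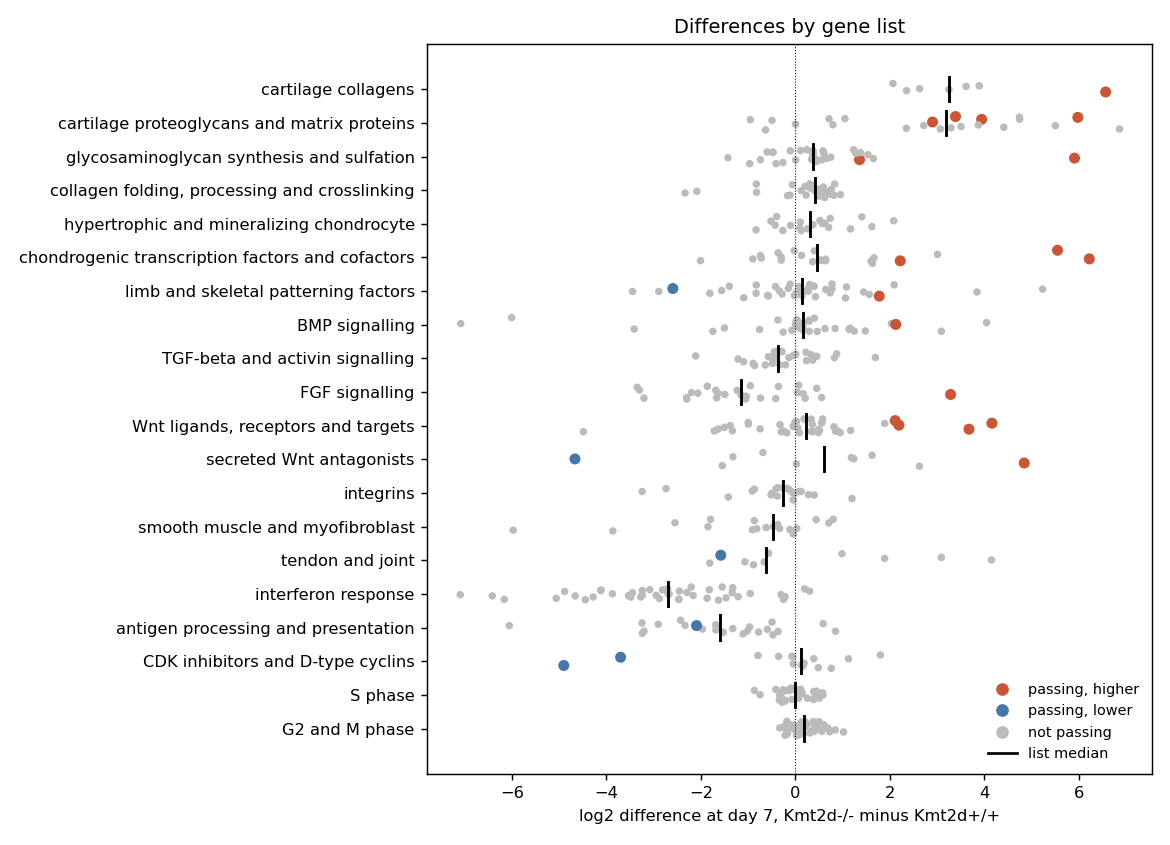
Log2 difference at day 7 (x axis, Kmt2d-/- minus Kmt2d+/+) of every tested member of 20 gene lists (y axis), with 1 point per gene, red where it passed as higher, blue where it passed as lower and grey where it did not pass, and a black line at the list's median. The 2 cartilage matrix lists have medians of 3.25 and 3.18, the interferon list has a median of -2.71 with no coloured point, and the D-type cyclins Ccnd1 and Ccnd2 are the blue points of their list.

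Outside cartilage matrix, few matrix and adhesion genes passed. Of 33 fibrillar and other non-cartilage collagens 1 rose and 1 fell (median 0.40). Col4a6, a basement membrane collagen gene, rose, at 0.280, 0.604 and 0.232 CPM against 4.75 and 4.40 CPM (log2 difference 3.61, SE 0.59, edgeR adjusted p = 0.0304). Col18a1, whose protein is the precursor of endostatin, fell, at 34.2, 12.2 and 24.5 against 0.577 and 1.36 CPM (-4.61, SE 0.78, edgeR adjusted p = 0.0332), and its log2 difference was -5.35 without Kmt2d-/- clone 2. Mmp15, a membrane-type metalloprotease gene, was the only one of 38 tested matrix proteases and inhibitors to pass, as higher (2.52, 3.08 and 1.87 against 9.83 and 8.88 CPM, log2 difference 1.91, SE 0.32, edgeR adjusted p = 0.0316). The genotypes did not overlap for these 3 genes. Each of the 3 passed without Kmt2d+/+ clone 2 only, when 1 clone was left out (edgeR adjusted p = 0.0685 to 0.179 without the others). No member passed among 13 small leucine-rich proteoglycans (median -0.26), 51 fibroblast and basement membrane glycoproteins (0.20), 21 integrins (-0.27), 18 cadherins and protocadherins (-1.21) and 58 axon guidance ligands and receptors (-0.21).

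Among the genes that passed in 4 fits, a pair encode vessel growth factors. Vegfd, a growth factor of lymphatic vessels, fell, at 14.6, 21.6 and 16.5 CPM against 2.92 and 3.54 CPM (log2 difference -2.44, SE 0.27, edgeR adjusted p = 0.00863). Angpt2, a ligand of the vessel receptor TIE2, fell as well, at 9.65, 10.4 and 8.96 against 1.14 and 0.880 CPM (-3.26, SE 0.37, edgeR adjusted p = 0.00863). Clones of a genotype were close to each other for both genes. Of 29 tested chemokines and cytokines 1 rose and 1 fell (median -0.99). Il17d, an interleukin 17 family gene, rose, at 2.19, 2.62 and 2.63 against 32.1 and 18.6 CPM (3.35, SE 0.46, edgeR adjusted p = 0.0182). Cx3cl1, the fractalkine gene, fell, at 39.3, 62.0 and 53.8 against 23 and 12 CPM (-1.56, SE 0.31, edgeR adjusted p = 0.0469), and did not pass without any one clone (0.0642 to 0.225). Vegfd, Angpt2 and Il17d did not pass without Kmt2d+/+ clone 3 (0.0793 for each) or Kmt2d-/- clone 1 (0.0697, 0.0545 and 0.0917), and Angpt2 and Il17d did not pass without Kmt2d+/+ clone 1 (0.0516 and 0.0661).

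Interferon-stimulated genes were low in both Kmt2d-/- clones and in 1 Kmt2d+/+ clone. Of 45 tested members 0 passed, 43 of the log2 differences were negative and their median was -2.71. The summed level ran from 833.2 to 10140 CPM over the Kmt2d+/+ clones and from 728.3 to 1563 CPM over the Kmt2d-/- clones, so the groups overlapped. Ifi44 stood at 1.81, 537.1 and 73.3 against 5.21 and 57.8 CPM, with Kmt2d+/+ clone 1 lowest and clone 2 highest of all 5 (-2.70, SE 1.90, edgeR adjusted p = 0.48). Of 24 antigen processing and presentation genes 1 fell, 0 rose and 14 had both Kmt2d-/- clones below all Kmt2d+/+ clones, against 19.8% of all tested genes (median -1.60). H2-M3, a nonclassical class I gene, stood at 16.1, 34.2 and 21.9 against 4.33 and 6.95 CPM (-2.09, SE 0.36, edgeR adjusted p = 0.034), and it did not pass without any one clone (0.0511 to 0.181). Of 16 complement genes 0 passed (median -0.90).

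Other genes that passed in edgeR over all libraries and over the day 7 libraries alone, in DESeq2 and in limma-voom belong to varied functions. Higher were Traf4, a signalling adaptor gene, at 24.2, 14.5 and 17.1 CPM against 81.3 and 83.6 CPM (log2 difference 2.15, SE 0.23, edgeR adjusted p = 0.00805), and Edil3, which encodes an integrin-binding matrix protein, at 28.4, 24.0 and 25.9 against 71.5 and 95.2 CPM (1.68, SE 0.17, edgeR adjusted p = 0.00674). Penk, the gene for the opioid precursor proenkephalin, stood at 17.0, 31.8 and 20.2 against 146.0 and 154.2 CPM (2.71, SE 0.54, edgeR adjusted p = 0.0454). Edil3 failed only without Kmt2d+/+ clone 3 (0.0793), Traf4 without Kmt2d+/+ clone 3 (0.106) or Kmt2d-/- clone 1 (0.0601), and Penk without each clone but Kmt2d-/- clone 2. Lower was Dlg4, which encodes the scaffold protein PSD-95, at 76.6, 54.5 and 69.3 against 11.3 and 13.4 CPM (-2.44, SE 0.49, edgeR adjusted p = 0.0471). Pla2g5 stood at 64.6, 39.1 and 77.3 against 0.327 and 1.36 CPM, and its log2 difference of -6.15 was -5.47 without Kmt2d-/- clone 1 and -7.52 without clone 2. Dlg4 passed without Kmt2d-/- clone 2 alone when 1 clone was left out, and Pla2g5 failed without Kmt2d+/+ clone 1 (0.0511) or clone 3 (0.0793).

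Some genes were silent in 1 genotype. With at most 3 counts in each library of 1 genotype and at least 1 CPM in each clone of the other, 10 genes were near 0 in the Kmt2d-/- clones and 1 in the Kmt2d+/+ clones. The 10 were Adgra1, Cbs, Ces2g, Cox7b2, Ly6c1, Serpinb9b, Smarca5-ps, Vgll2, Zfp978 and Zfp982, of which Adgra1 and Cbs did not pass. Cbs, which encodes the first enzyme of transsulfuration, held 155, 323 and 190 counts against 0 and 3 at day 7, but 60 and 8 counts in the Kmt2d-/- libraries at day 0. Vgll2, a cofactor of TEAD transcription factors, held 110, 130 and 520 counts against 2 and 0. The gene seen in the other genotype alone was Tmem121, in the chromosome 12 segment, with 0 counts in each Kmt2d+/+ library and 223 and 233 in the Kmt2d-/- libraries. Imprinted genes (26 tested) held 2 of the lower genes, Ndn, the necdin gene, and Peg12, and no higher ones (median 0.35). Peg12 stood at 44.7, 38.0 and 39.5 CPM against 26 and 23.2 CPM (log2 difference -0.73, SE 0.15, edgeR adjusted p = 0.0479) and did not pass without any one clone (0.0538 to 0.24). Ndn stood at 29.9, 23.7 and 39.2 against 0 and 0.165 CPM and failed without Kmt2d+/+ clone 1 (0.0516) or clone 3 (0.106), and its log2 difference of -8.49 was -7.53 without Kmt2d-/- clone 1 and -13.67 without clone 2.

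Several defining markers of other cell types were at or near 0, while the defining chondrocyte markers Sox9, Col2a1, Acan, Matn1 and Col9a1 were detected in all 5 libraries. The muscle regulators Myod1 and Myog and the T cell gene Cd3e had 0 counts in each of the 5 libraries. The leukocyte gene Ptprc had 14 counts in all, the endothelial gene Cdh5 had 8 and the adipocyte genes Adipoq and Plin1 had 17 and 5. The glial gene Sox10 had 5, the neural gene Rbfox3 had 13 and the epithelial genes Epcam and Krt8 had 10 and 16. Other defining markers of such types were detected in every clone and overlapped between genotypes or were lower in the Kmt2d-/- clones. The adipocyte regulator Pparg stood at 9.54, 14.8 and 8.60 CPM against 12.5 and 13.5 CPM. The endothelial gene Pecam1 stood at 6.40, 6.19 and 8.17 against 5.44 and 4.46 CPM, and the neuronal tubulin gene Tubb3 at 7.07, 20.5 and 6.04 against 16.2 and 30.2 CPM. Markers of osteoblasts were expressed in both genotypes. Sp7 stood at 342.4, 148.2 and 230.0 CPM against 277.0 and 205.7 CPM and Ibsp at 728.7, 89.65 and 236.2 against 367.2 and 381.5 CPM, with the groups overlapping. Bglap was lower in both Kmt2d-/- clones, at 3.68, 6.05 and 10.25 against 3.54 and 2.42 CPM. Summed levels of the osteoblast list were 10580 to 14660 CPM in the Kmt2d+/+ clones and 12480 to 22420 CPM in the Kmt2d-/- clones. Of its 12 tested genes 0 passed, with 7 positive and 5 negative log2 differences. Phex, its member of smallest p, was lower without overlap, at 26.4, 6.83 and 22.5 against 2.10 and 2.37 CPM (-3.06, SE 0.70, edgeR adjusted p = 0.0598). Of 10 tendon and joint genes Scx, a tendon transcription factor, fell, at 42.2, 26.3 and 33.4 against 11.6 and 11.2 CPM, and 0 rose. Scx passed without Kmt2d+/+ clone 2 (edgeR adjusted p = 0.01975) but not without Kmt2d+/+ clone 1 (0.0818) or clone 3 (0.179). Nor did it pass without either Kmt2d-/- clone, which leaves 1 clone in that group (log2 difference -1.61 without clone 1 and -1.56 without clone 2). Erg, a factor of joint cartilage and a member of the endothelial list, stood at 3.85, 0.796 and 1.65 against 45.3 and 29.2 CPM (log2 difference 4.15, SE 0.87, edgeR adjusted p = 0.0506).

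In the remaining lists of other cell types 0 genes passed. Of 19 smooth muscle and myofibroblast genes 15 were negative (median -0.47), and their summed level was 3870 to 4781 CPM in the Kmt2d+/+ clones and 3080 to 3526 CPM in the Kmt2d-/- clones. Acta2, the smooth muscle actin gene, stood at 463.1, 457.7 and 679.1 against 108.9 and 198.1 CPM (-1.80, SE 0.55, edgeR adjusted p = 0.124). Medians were -1.26 for 6 adipocyte genes, -1.96 for 18 skeletal muscle genes, -0.48 for 11 endothelial genes, -0.43 for 7 immune cell genes, -0.36 for 6 epithelial genes and 0.31 for 9 neural and glial genes. The summed level of the endothelial list, which includes Erg, was 21.04 to 29.82 CPM in the Kmt2d+/+ clones and 44.59 to 62.84 CPM in the Kmt2d-/- clones. Of 20 mesenchymal progenitor surface markers Ly6c1 fell and 0 rose (median -0.32), at 18.2, 22.8 and 4.79 CPM against 0.0192 and 0.0183 CPM (-9.49, SE 1.20, edgeR adjusted p = 0.0136). The part of any of these cell types in the differences of other genes was not tested.

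General cell functions held few passing genes. Of 53 nuclear genes of oxidative phosphorylation Atp5g3 rose, by 0.64 on the log2 scale (SE 0.13, edgeR adjusted p = 0.0482), Cox7b2 fell and the median was 0.10. Atp5g3 passed in only 5 of 16 alternatives. Of 51 cytosolic ribosomal protein genes 3 rose, Rpl5 and Rps29 among them, 0 fell and the median was 0.19. Rps29 lies in the chromosome 12 segment and did not pass with the regional level subtracted (edgeR adjusted p = 0.265). Single values in this family are uncertain, since pseudogene copies can take some of the reads. No gene passed among 36 genes of glycolysis and hypoxia (median 0.46, with 18 genes higher in both Kmt2d-/- clones than in all Kmt2d+/+ clones, against 17.9% of all tested genes), 35 of cholesterol and fatty acid synthesis (-0.02), 30 of the unfolded protein response and secretion (0.17) and 26 AP-1 and immediate early genes (-0.43). Neither 18 genes of H3K4 methyltransferase complexes (median 0.09) nor 27 polycomb and histone demethylase genes (0.02) held a passing member.

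Over all 53 lists, 40 of 1283 distinct tested genes passed, 27 higher and 13 lower, and 31 lists held none. Of all tested genes 1.87% passed. The lists were written with earlier results of these data known, so setting their share beside this one is no test.

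The Kmt2d-/- clones differed from each other in genes that did not pass between genotypes. Gas6, a ligand of TAM receptors, stood at 105.3 CPM in clone 1 and 0.532 CPM in clone 2, against 1.83, 108.6 and 7.64 CPM in the Kmt2d+/+ clones. Col4a2, a basement membrane collagen gene, stood at 433.9 and 39.1 CPM, against 7.53, 167.8 and 27.6 CPM in the Kmt2d+/+ clones. Bdh1, a ketone body enzyme gene, stood at 52.8 and 5.52 CPM, against 0.641, 8.76 and 0.368 CPM. Clone 1 was thus the higher for these 3, and likewise for Gbp9 and Wscd2. Kmt2d-/- clone 2 was the higher for Cdsn, Usp18, Ifi44, Xaf1 and Aspn. The title of Kmt2d+/+ clone 2 shares its clone name with Kmt2d-/- clone 1. Kmt2d+/+ clone 2 was the highest of its genotype for Gas6, Col4a2, Bdh1, Gbp9 and Wscd2. It was also the highest of its genotype for Cdsn, Usp18, Ifi44 and Xaf1, where Kmt2d-/- clone 1 was the lower of its pair. Aspn, which encodes the matrix protein asporin, stood at 17.7 and 162.9 CPM, against 94.3, 164.0 and 220.6 CPM. These 10 genes had the largest ratios between the 2 Kmt2d-/- clones among genes at 50 CPM or more in 1 of them, and none passed between genotypes.

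**Figure D4:**
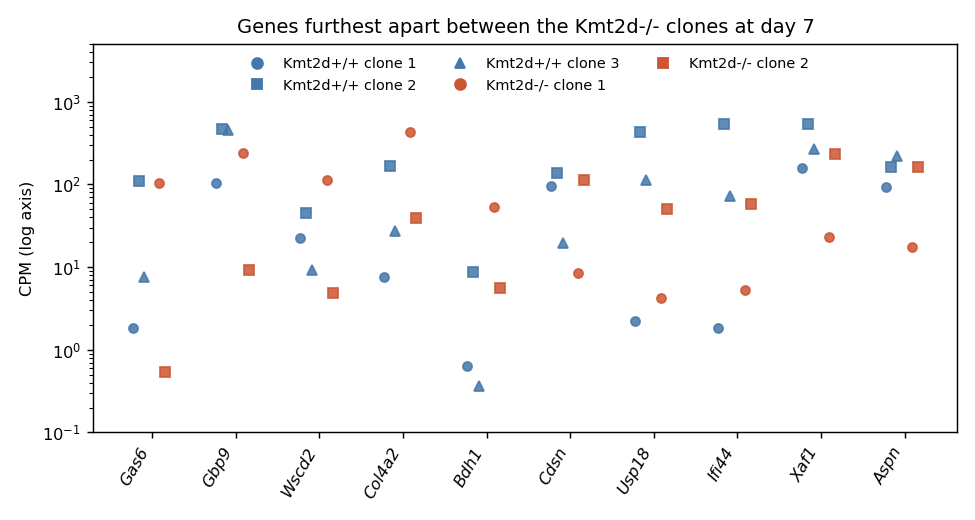
Level of the 10 genes furthest apart between the 2 Kmt2d-/- clones at day 7 (x axis), in CPM on a log axis, with blue for Kmt2d+/+ and red for Kmt2d-/- clones and 1 symbol per clone. The Kmt2d+/+ clones also spread widely for several of them, as for Ifi44 (1.81 to 537.1 CPM) and Gas6 (1.83 to 108.6 CPM).

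The difference at day 7 was set beside that at day 0, before differentiation, in the same clones. In a test of the change of the difference (interaction), 0 genes passed in edgeR, with 568 at an unadjusted p under 0.05, 0 in limma-voom with or without the clone block, and 23 in DESeq2. For several genes described here the fitted difference was smaller at day 0. Fzd9 stood at 3.78, 3.6 and 5.82 CPM against 13.4 and 3.58 CPM at day 0, where Kmt2d-/- clone 2 lay below all Kmt2d+/+ clones, and the day 0 difference was 0.95 (SE 0.58, edgeR adjusted p = 0.398). Fzd4 had overlapping levels at day 0, at 3.12, 2.16 and 3.81 against 3.62 and 2.18 CPM (-0.06, SE 0.42, edgeR adjusted p = 0.949). Il17d (day 0 difference 1.02) and Matn4 (0.89) did not pass at day 0 either. The unadjusted interaction p was 0.004 for Fzd9, 0.00421 for Fzd4, 0.00533 for Il17d and 8e-04 for Matn4, and the edgeR adjusted p was 1 for each, so a change of the difference was not shown for any of them.

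Other genes passed at day 0 as well, where 332 of the 15467 tested genes passed in edgeR. Col2a1 stood at 2.72, 34.4 and 8.66 CPM against 2533 and 806.4 CPM at day 0 (log2 difference 6.77, SE 1.03, edgeR adjusted p = 0.023). Papss2 stood at 0.172, 0.371 and 0.232 against 16.4 and 2.64 CPM (5.18, SE 0.71, edgeR adjusted p = 0.019). Foxa2 passed too (8.12, edgeR adjusted p = 0.0486), at 0 CPM in each Kmt2d+/+ library against 1.11 and 0.229 CPM. Lgr5 stood at 1.32, 1.95 and 0.822 CPM against 42.6 and 16.0 CPM at day 0 (log2 difference 4.43, SE 0.52, edgeR adjusted p = 0.00999), and Lrp5 at 18.7, 16.8 and 29.2 against 81.0 and 103.1 CPM (2.09, SE 0.35, edgeR adjusted p = 0.0268). Ccnd1 stood at 225.5, 136.8 and 278.2 against 23.3 and 20.2 CPM at day 0 (-3.29, SE 0.35, edgeR adjusted p = 0.00691). Ccnd2 stood at 240.9, 137.3 and 283.3 against 23.6 and 12.1 CPM (-3.63, SE 0.48, edgeR adjusted p = 0.0167). Both cyclins were thus lower in each Kmt2d-/- clone than in any Kmt2d+/+ clone at both times. Scx, like Fzd4, did not pass at day 0, with overlapping levels of 20.1, 29.3 and 18.1 against 19.1 and 16.8 CPM at day 0 (-0.33, SE 0.27, edgeR adjusted p = 0.537) and non-overlapping levels at day 7. Its unadjusted interaction p was 0.0086 and its edgeR adjusted p was 1.

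**Figure D5:**
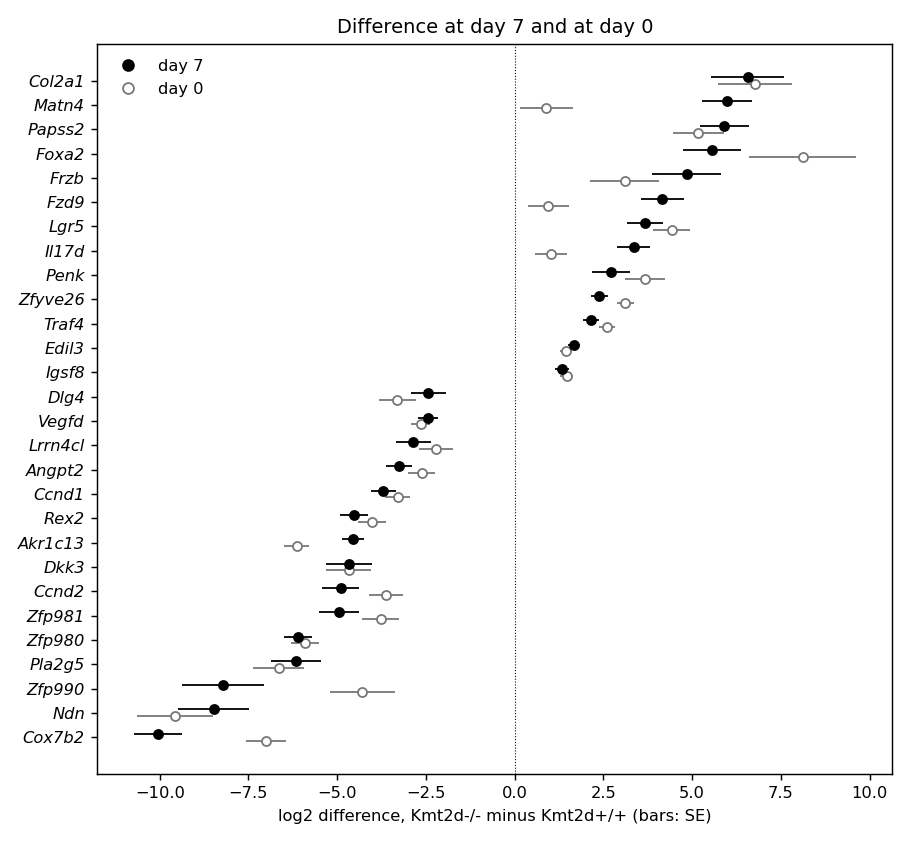
Log2 difference between genotypes (x axis, Kmt2d-/- minus Kmt2d+/+, bars for the SE) at day 7 (black) and day 0 (open) for the 28 genes of 5 CPM or more in a genotype that the naming rule drew from those passing in 4 fits at day 7. Day 0 points of Matn4 (0.89 against 5.98 at day 7), Zfp990 (-4.29 against -8.22), Fzd9 (0.95 against 4.16), Cox7b2 (-7.01 against -10.06) and Il17d (1.02 against 3.35), among others, lie nearer to 0. Those of Foxa2 (8.12 against 5.55), Akr1c13 (-6.14 against -4.56), Ndn (-9.57 against -8.49), Penk (3.67 against 2.71) and others lie further from 0. The day 0 value of Foxa2 rests on 0 CPM in each Kmt2d+/+ library and 1.11 and 0.229 CPM in the Kmt2d-/- libraries.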

How the data were processed

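Members, gene lists and the naming rule were chosen with earlier results of these data known. RNA was extracted with TRIZOL, selected for poly(A) and made into libraries with the NEBNext Ultra II kit, per the labels' protocols. The deposited values are gene-level estimated counts for 27911 Ensembl genes, 1 column per flow-cell run, and only 0.351% of the nonzero values lie within 0.001 of a whole number. The submitters' processing notes list the GRCm38 build and, without versions, Salmon, DESeq2, edgeR and limma. The transcript set and whether strand was used are not stated in these sources, so antisense partners and near-identical copies are uncertain.

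Runs of a library were summed and rounded. Genes were filtered with filterByExpr and scaled by TMM, and edgeR 4.0.16 quasi-likelihood tests (R 4.3.3) were run on 1 model of the 4 groups with 6 residual degrees of freedom, with Benjamini-Hochberg adjustment over all 15467 genes. Alternatives used DESeq2 1.42.0, limma 3.58.1 and other filters, scalings, runs and clones. Symbols came from the GENCODE vM21 annotation. The 53 lists held 1487 genes, of which 1474 matched and 1283 passed the count filter. On simulated counts of 15160 genes, the day 7 test recovered 12 of 100 genes changed 2-fold and 78 of 100 changed 8-fold, with 9 false calls. The simulated libraries were drawn independently, without the correlation between the 2 days of a clone, so these numbers may not carry over to the real libraries. A floor of 3 counts corresponded to 0.0453 to 0.0551 CPM at day 7, for counting error only.

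Day 0 and day 7 libraries of a clone come from the same line, which pairs them. Their deviations from the group means correlated with r = 0.363, 0.571 and 0.432 in the Kmt2d+/+ clones and 0.463 in the Kmt2d-/- clones. The genes named were Kmt2d, up to 4 passing members of each list by adjusted p (otherwise the member of smallest p), the 15 largest differences in each direction among genes of at least 5 CPM passing in 4 fits, and the 5 genes in each direction furthest apart between the Kmt2d-/- clones. Other list members were named after their values were seen.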

Additional observations from a re-analysis of the deposited data

How the results depend on the processing

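With all clones kept, the day 7 count of 290 was 1566 with DESeq2, 533 with limma-voom, 442 with limma-voom and the clone as a block for pairing, 184 with run 2 alone, 151 with the regional offset, 55 with the day 7 libraries alone and 51 with glmTreat against a fold of 1.5. Under that block 52 of the 55 named passing genes passed again. Leaving out 1 clone gave 10 to 272 genes, from fewer samples. The interaction gave 23 genes with DESeq2. For genes differing over 2-fold between 2 clones at day 7, median over the 6 pairs between genotypes, the number was 1542 and, at a minimum of 20 CPM, where fewer genes were compared, 911. No passing named gene changed sign, which the lack of overlap between genotypes in these genes largely fixed in advance. Of the genes chosen for a gap between the Kmt2d-/- clones, the log2 difference of Gas6 was -0.70 with limma-voom (-0.699) and with the block (-0.701), and -6.22 to 3.48 when 1 clone was left out. The same range was -2.40 to 2.13 for Wscd2, -0.80 to 3.75 for Col4a2, -3.31 to 0.42 for Cdsn and -3.18 to 0.026 for Aspn. Leaving out 1 of the 2 Kmt2d-/- clones assumes that the lone clone varies like the others. Genes near the floor of 3 counts in 1 genotype, such as Foxa3, have folds that counting error limits. Causes of these changes were not tested.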
